A study of Mus musculus with 24 samples.

Results

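Genes induced by type I interferon were followed in B cells sorted from the spleen of NOD and B6 mice. The set holds 35 named genes, among them antiviral effectors, RNA sensors, 2-5A synthetases, the ISG15 conjugation system and the transcription factors that carry the interferon signal. Its members on the array were taken as every probe set annotated to only 1 gene whose symbol is in that list. This gave 58 of 45101 probe sets, for 33 of the 35 genes. Isg15 had no probe set of its own, since the one that reads it is shared with a second gene, and Ifi44 had none in the annotation used. Of the 33 genes 18 had 1 probe set, 7 had 2, 6 had 3 and 2 had 4.

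The cells came from female mice aged 7 weeks of 2 inbred strains, NOD/ShiLtJ (NOD), which develops autoimmune diabetes, and C57BL/6/J (B6), which does not. No treatment or engineered allele is named in the labels for either strain. Splenocytes of 8 mice were pooled for each sort, cells bearing CD3 or CD11b were removed, and 6 B cell subsets were separated by flow cytometry with B220, CD93, CD23, CD24, CD21/35 and IgM. The subsets are T1, T2FO and T3 (transitional cells), FO (mature follicular cells), T2MZ (transitional cells of the marginal zone path) and MZ (marginal zone cells). Each subset of each strain was sorted in 2 experiments, which gave 24 arrays in 12 groups of 2.

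Type I interferons signal through a receptor on nearly all cells. Receptor-bound kinases phosphorylate STAT2, which acts in a complex with IRF9 that binds the interferon-stimulated response element in the promoters of the response genes. The products degrade viral RNA, block its translation, sense it, or limit the signal itself. B cells respond to type I interferon, and the same genes have a low tonic activity in unstimulated lymphocytes that depends on the receptor.

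The core of the response element was searched in promoters because members that move together may share it. The letters searched were GAAA, any 2 bases and GAAA again, on both strands (TTTC, any 2 bases and TTTC on the other strand) and with overlapping matches allowed, in RefSeq promoters of GRCm38.p6 that run from 250 bases before to 50 bases after the start of a gene. Promoters were found for 25 of the 35 member genes, and 10 of these genes (40%) had a match, against 3.99% of all 27025 genes with a promoter. A match is a run of letters, not a measured binding site. Rtp4, Cmpk2 and Usp18, on which results below also turn, are not among these 10 genes. Members with a match that the results below turn on are shown with up to 10 flanking bases, 5′ to 3′ on the strand of the gene. The stretch was ended at the start of the gene where the match lies before it. The fixed letters of each match are in capitals.
Rsad2 (chr12:26456553-26456582): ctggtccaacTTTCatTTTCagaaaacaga
Ifit1 (chr19:34640775-34640823): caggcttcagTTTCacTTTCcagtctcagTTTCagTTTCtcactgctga
Oas1a (chr5:120907526-120907555): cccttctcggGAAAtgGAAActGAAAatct
Ifih1 (chr2:62646206-62646233): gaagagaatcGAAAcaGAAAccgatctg
Eif2ak2 (chr17:78882535-78882564): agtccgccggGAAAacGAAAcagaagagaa
Stat2 (chr10:128270266-128270295): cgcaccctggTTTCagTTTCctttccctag
In Rsad2 the match begins 120 bases before the start of the gene, in Ifit1 the first of 2 matches begins 104 before, and in Stat2 it begins 222 before. In Ifih1 and Eif2ak2 it begins 32 and 18 bases after the start. In Oas1a the first of 2 overlapping matches begins 20 before the start used for its promoter, where the stretch shown ends. That start differs from the start of the Oas1a gene at 120907544. Stat2 carries the match although it was higher in NOD over its probe sets. Rsad2, Ifit1, Oas1a and Ifih1 were lower over all of theirs, and Eif2ak2 was lower in 2 of 3.

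Several facts about the arrays bear on every value below. The deposited values are log values from which the median of each probe set across arrays has been taken, so they hold no expression level and 1 gene cannot be ranked against another. Probes may match the sequence of 1 strain better than the other, so a low NOD value can reflect a probe mismatch as well as less RNA. This was not tested. In these sorted populations, fewer cells with a transcript and less of it per cell cannot be told apart. The NOD subset labels run against the transcripts of the sort markers: Cd93, a marker of immature B cells (probe set 1419589_at), was 3.19 and 2.92 in B6 T1 but -1.89 and -1.89 in the NOD arrays labelled T1. The difference between the 5′ and 3′ beta-actin controls, which depends on how far labelled RNA reaches towards the 5′ end, lay between -0.676 and 0.633 in NOD. It lay between -3.94 and -3.09 in 6 B6 arrays, between -1.11 and -0.586 in 4 and was 0.408 and 0.423 in the last pair, replicate 2 of FO and of MZ. The gene Nnt, read as a check of strain, also set this pair apart. Its mean over 3 probe sets was 0.05 in FO 2 and 0.10 in MZ 2, within the NOD range of 0.03 to 0.42. In the other B6 arrays it lay between -0.53 and -0.16. Single probe sets did not all do so, as 1456573_x_at was -0.49 in FO 2 and 0.12 in MZ 2. The cause was not tested.

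Across the subsets, interferon response genes were mostly lower in NOD by sign. Of the 33 genes, 25 (75.8%) were lower in NOD over all their probe sets, against 44% of 18193 genes on the array. All 18 members with 1 probe set were lower (59.1% of all such genes), and 7 of the 15 members with more than 1 were lower over all of them (28.6% of all such genes, and 37.5%, 24.6% and 15.6% of genes with 2, 3 and 4), namely Cmpk2, Dtx3l, Parp14, Rsad2, Rtp4, Xaf1 and Zbp1. Stat2 was higher over both its probe sets, and the 7 remaining genes had probe sets on both sides of 0. Among the 25, the mean over probe sets was below -0.5 log2 units in 16 and above -0.2 in 5, so several members were lower in sign but by little.

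The count of 25 was 26 when the 6 B6 arrays of lowest 5′ signal were left out and 20 without the arrays labelled T1. It was 17 of 33, where 40.8% of all genes were lower over all, for NOD arrays labelled FO and MZ against B6 FO 2 and MZ 2, the B6 arrays whose 5′ signal lies within the NOD range. The Nnt mean of this B6 pair lies within the NOD range too. These 3 settings were chosen after the values were seen, and the last, which also leaves out the other labels, is called the comparison at like 5′ signal below. That comparison took arrays as independent, and both its B6 arrays carry replicate number 2, so its limma p-values do not rest on replicate pools of B6. There 17 of 58 probe sets had the opposite sign, and of the 7 genes named above Cmpk2, Rsad2, Xaf1 and Zbp1 were no longer lower over all. It called 7 member probe sets, 6 lower and 1 higher (11.6% of all probe sets were called). The lower ones were Xaf1 1443621_at (-4.07), Adar 1439276_at (-1.17), Ifih1 (-1.10), Parp14 1432548_at (-0.96), Zbp1 1419604_at (-0.91) and Rsad2 1421009_at (-0.64). Adar 1434268_at was higher by 0.82. Leaving out 1 pool of mice at a time gave 21 to 26.

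In single probe sets the difference passed the test in 6 of 58, 5 lower and 1 higher in NOD (limma on means of the 6 subsets of a pool, 2 pools per strain, Benjamini-Hochberg over 45037 probe sets, adjusted p under 0.05). By size, 21 of 58 were below -0.5 (6.4% of all probe sets) and 3 above 0.5 (8.35% of all). On the whole array 3.02% were called, 1.38% lower and 1.64% higher. As means over the probe sets of a gene, 4 of 33 were called, all lower (2.38% of all genes were called and 1.2% called lower), namely Ifih1, Parp14, Rsad2 and Rtp4. By sign 46 of the 58 (79.3%) were lower, against 58.3% of all probe sets, with a median of -0.21 log2 units for the members and -0.03 for all. The member median was -0.53 with the beta-actin difference as a term. With 1 pool of a strain left out, the spread came from the other strain alone and the lone pool was assumed to vary like it. Then 10 and 12 members were called without B6 replicate 1 and 2, and none without NOD replicate 1 or 2 (limma, 22 and 18 at an unadjusted p under 0.05). Counts over all probe sets do not stand beside these counts, so they do not show whether members stand out. The differences of Rsad2 1436058_at were -2.86 and -2.60 without the NOD pools, and those of Rtp4 1418580_at were -2.38 and -1.70.

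The calls also depended on taking the replicate number as the pool. Within B6, the gaps between replicates correlated over all probe sets at 0.73 to 0.87 among T1, T2FO, T3 and T2MZ and at 0.71 between FO and MZ, but at -0.62 to -0.37 between these sets. Crossing the B6 FO and MZ numbers follows these signs, and with it no member was called (limma, 16 at an unadjusted p under 0.05), although no difference changes. The 5′ minus 3′ control difference splits the B6 arrays in the same way.

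**Figure D1:**
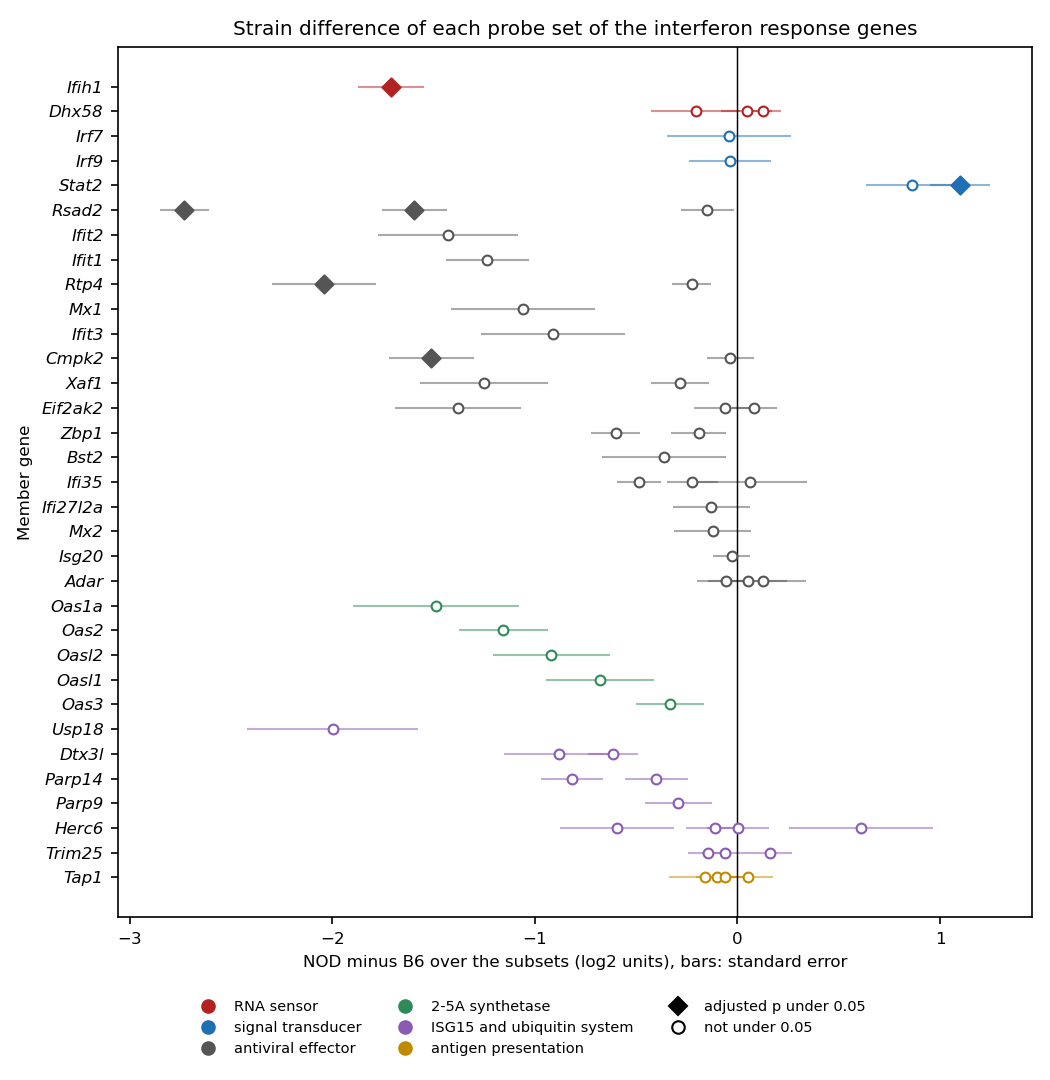
Difference of NOD minus B6 over the subsets in log2 units (horizontal axis) for each of the 58 probe sets of the 33 member genes (vertical axis), with standard errors from limma, colored by the role of the gene. Filled diamonds mark the 6 probe sets with an adjusted p under 0.05. 46 points lie left of 0, and genes such as Rsad2, Rtp4 and Cmpk2 have probe sets far from each other.

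Rsad2 encodes viperin, an antiviral enzyme of the endoplasmic reticulum, and gave the largest difference among the members. Its probe set 1436058_at ranged from -0.04 to 3.72 in the 12 B6 arrays (median 2.05) and from -1.69 to 0.03 in the 12 NOD arrays (median -0.80). Of the B6 arrays 11 lay above every NOD array, the exception being replicate 2 of FO. The difference was -2.73 ± 0.12 log2 units (SE, 2 pools per strain, limma adjusted p = 0.0104). A second probe set, 1421009_at, was lower by -1.60 ± 0.16 (limma adjusted p = 0.0263), with 10 NOD arrays below all of B6. The third, 1421008_at, differed by -0.15 ± 0.13 (limma adjusted p = 0.68), and its values overlapped between the strains. Cmpk2, a mitochondrial nucleotide kinase, is the neighbor of Rsad2 on chromosome 12 (26469117 to 26479837, against 26442743 to 26456452 for Rsad2, GRCm38.p6). Its probe set 1450484_a_at was lower by -1.51 ± 0.21 (limma adjusted p = 0.0474, and 0.0523 with each array centred on its median) and 1422095_a_at differed by -0.03 ± 0.12. With the beta-actin difference as a term in the model the Cmpk2 value was -0.75 and was not called (limma adjusted p = 0.183). In the comparison at like 5′ signal neither Rsad2 1436058_at (-1.31, limma adjusted p = 0.064) nor Cmpk2 (-0.15, limma adjusted p = 0.82) was called, while Rsad2 1421009_at was (-0.64, limma adjusted p = 0.0499).

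Rtp4, a receptor transporter protein with a role in antiviral defence, ranged from -0.91 to 2.39 in B6 (median 0.88) and from -2.45 to 0.08 in NOD (median -1.29) in probe set 1418580_at. In 10 B6 arrays it lay above every NOD array. It was lower by -2.04 ± 0.26 (limma adjusted p = 0.0392), while 1449143_at differed by -0.23 ± 0.09. In the comparison at like 5′ signal it was -1.03 and not called (limma adjusted p = 0.173). Averaged over its probe sets, Rtp4 was still called lower (-1.13 ± 0.15, limma adjusted p = 0.0406).

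The RNA sensor gene Ifih1 encodes MDA5, which binds long double-stranded RNA in the cytosol. It had 1 probe set, with values from 0.14 to 1.98 in B6 (median 1.19) and from -1.34 to -0.14 in NOD (median -0.49). Ifih1 was the single member for which all 12 NOD arrays lay below all 12 B6 arrays, as did 0.89% of all probe sets. It was lower by -1.71 ± 0.16 log2 units (limma adjusted p = 0.0243). In single labels the difference stayed between -2.04 (T2MZ) and -1.18 (FO), and it was -1.10 in the comparison at like 5′ signal (limma adjusted p = 0.0383). Dhx58, which encodes the related regulator LGP2, had differences of -0.21, 0.04 and 0.13 in its 3 probe sets, none of them called over the subsets.

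Among the genes that carry the signal, Stat2 went the other way. Its probe set 1421911_at ranged from -1.20 to 0.33 in B6 (median -0.74) and from -0.57 to 1.27 in NOD (median 0.53), and 6 NOD arrays lay above all of B6. Stat2 was higher in NOD by 1.10 ± 0.15 (limma adjusted p = 0.0446, and 0.0515 with each array centred on its median), and by 0.86 ± 0.23 in 1450403_at (limma adjusted p = 0.142). In B6 the highest Stat2 values were 0.33 and 0.03, on arrays FO 2 and MZ 2, the pair with 5′ signal like that of NOD. Against those alone the difference was 0.49 and not called (limma adjusted p = 0.313). With the beta-actin difference as a term it was 0.93, and 0.87 in 1450403_at (limma adjusted p = 0.00189 and 0.0112). Without the 6 B6 arrays of lowest 5′ signal the values were 1.02 and 0.94, also called. Both of these fits took arrays of 1 pool as independent. The part of the 5′ signal in the Stat2 values was not tested. Irf9, the DNA-binding partner of STAT2, differed by -0.04 ± 0.20, and Irf7, the factor that amplifies interferon production, by -0.04 ± 0.31. Irf7 ranged from -1.05 to 1.60 within B6 alone, so the strains did not stand apart.

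**Figure D2:**
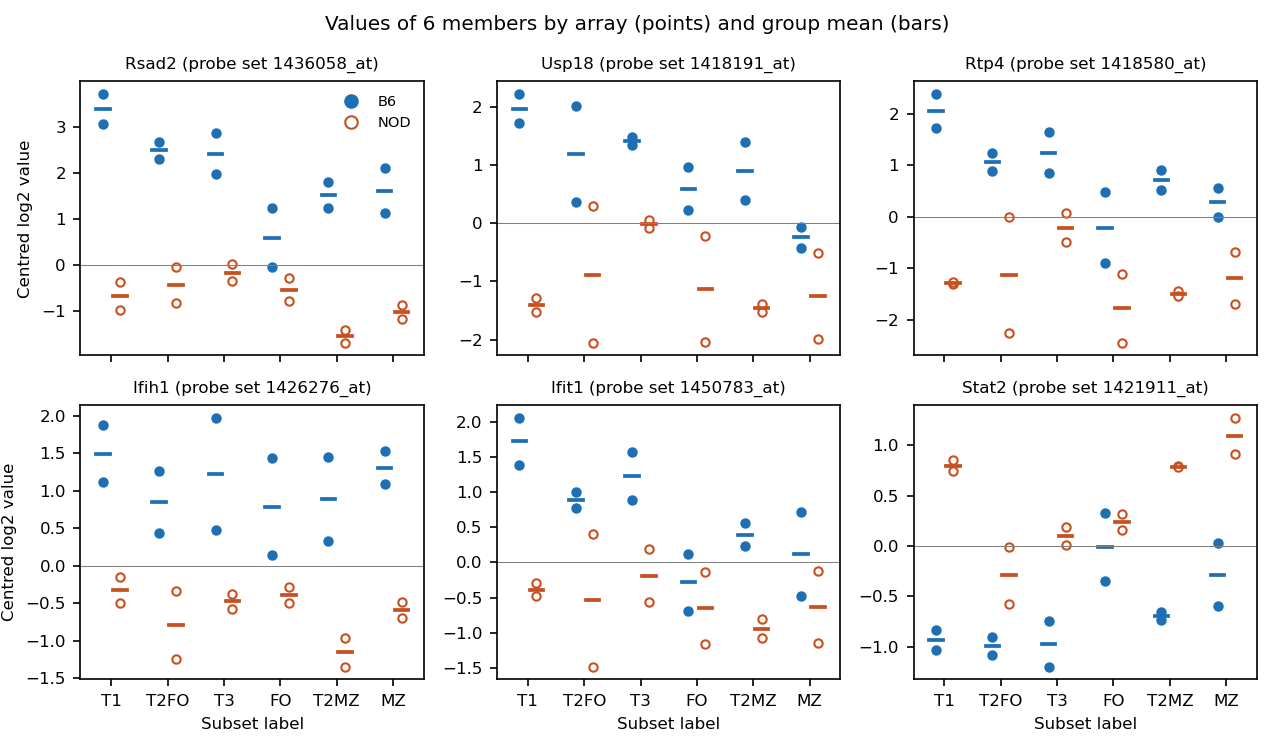
Centred log2 values (vertical axes) of 6 members by subset label (horizontal axes), each from 1 probe set; points are arrays (filled B6, open NOD) and bars are means of 2 arrays. Rsad2, Usp18, Rtp4 and Ifit1 are highest in B6 T1, Ifih1 is separated between the strains in every label, and Stat2 is higher in NOD in most labels.

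Other effector genes had negative differences of up to similar size that did not pass the test. The IFIT genes, whose proteins bind foreign RNA caps and ends, had differences of -1.43 ± 0.34 (Ifit2), -1.24 ± 0.20 (Ifit1, limma adjusted p = 0.0624) and -0.91 ± 0.36 (Ifit3). They lie side by side on chromosome 19. For Ifit2, 11 NOD arrays lay below every B6 array. Mx1, a dynamin-like antiviral GTPase, had -1.06 ± 0.35, and its relative Mx2 had -0.12 ± 0.19. The 5 members of the 2-5A synthetase family, which activate RNase L or resemble the enzymes that do, were at -1.49 ± 0.41 (Oas1a), -1.16 ± 0.22 (Oas2), -0.92 ± 0.29 (Oasl2), -0.68 ± 0.27 (Oasl1) and -0.33 ± 0.17 (Oas3). None of these passed the test, at limma adjusted p between 0.0787 (Oas2) and 0.41 (Oas3). At like 5′ signal the values were smaller for Oas1a (-0.087), Oas2 (-0.18), Oasl1 (-0.11), Oas3 (0.042), Ifit1 (-0.055) and Mx1 (-0.21), and Oasl2 turned to 0.72 (limma adjusted p = 0.191). Ifit2 (-1.01) and Ifit3 (-1.26) kept differences of over 1 log2 unit, none of them called.

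In the ISG15 system, Usp18, the protease that removes ISG15 and dampens the receptor, had the largest difference that was not called, -1.999 ± 0.42 (limma adjusted p = 0.0958). Usp18 ranged from -0.42 to 2.23 in B6 and from -2.06 to 0.30 in NOD. Herc6, the mouse ligase for ISG15, had probe sets that disagreed, with -0.60 ± 0.28 in 1438037_at and 0.61 ± 0.36 in 1432026_a_at, and the first turned to 0.070 with the control difference as a term. Trim25, a ligase that acts on the RIG-I pathway, lay between -0.14 and 0.16 over the subsets. The neighbors Dtx3l, Parp9 and Parp14 on chromosome 16, of which the first pair form a ubiquitin ligase complex, had negative differences in all 5 of their probe sets, from -0.29 (Parp9) to -0.88 (Dtx3l). None of the 5 was called singly over the subsets, and Parp14 was called as the mean of its probe sets (-0.61 ± 0.08, limma adjusted p = 0.0423). At like 5′ signal Parp14 1432548_at was called lower (-0.96).

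Other members showed little or a split in the comparison over subsets. Eif2ak2, which encodes the kinase PKR, had -1.38 ± 0.31 in 1440866_at but 0.08 and -0.06 in its other probe sets. In the comparison at like 5′ signal the first was 0.054. The editing enzyme gene Adar stayed between -0.06 and 0.13 over the subsets, but at like 5′ signal 1434268_at was higher by 0.82 (limma adjusted p = 0.0139) and 1439276_at lower by -1.17 (limma adjusted p = 0.00438). The differences of Tap1, the peptide transporter for class I MHC, lay between -0.16 and 0.05 in 4 probe sets. Zbp1, a sensor of Z-form nucleic acid, had -0.60 ± 0.12 and -0.19 ± 0.13. At like 5′ signal its probe set 1419604_at was called lower (-0.91). The remaining effectors were Bst2 (-0.36 ± 0.30), which tethers budding virus, Ifi27l2a (-0.13 ± 0.19), the nuclease gene Isg20 (-0.03 ± 0.09) and Ifi35, at -0.49, -0.22 and 0.06 in its 3 probe sets. A model with the beta-actin difference as a term, arrays taken as independent, called more of these lower. They were Bst2 (-1.55), Zbp1 1419604_at (-1.32), Eif2ak2 1440866_at (-1.29), Ifi35 1424617_at (-0.96) and 1445897_s_at (-0.63), and Tap1 1416016_at (-0.67). Adar, Ifi27l2a and Isg20 had none called in that model. Its calls over all probe sets are given below.

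Xaf1, a gene linked to cell death, was lower in NOD over both probe sets, and a pair of arrays stood apart in the larger difference (-1.25 ± 0.32 in 1443621_at, limma adjusted p = 0.131). The value was 3.41 in B6 FO replicate 2 and 4.12 in B6 MZ replicate 2, against -0.07 to 1.11 in the other 10 B6 arrays. Replicate 1 of the same groups stood at -0.06 and -0.05. At like 5′ signal, where this high pair gives the only B6 arrays, the difference was -4.07 and was called. Without B6 replicate 2, which leaves out both high arrays, the difference was -0.80 and was called (limma adjusted p = 0.0406). The same pair of arrays was the highest of all in Adar 1439276_at (1.18 and 1.35) and the lowest in Adar 1434268_at (-0.76 and -0.97). The part of the 5′ signal in these values was not tested.

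**Figure D3:**
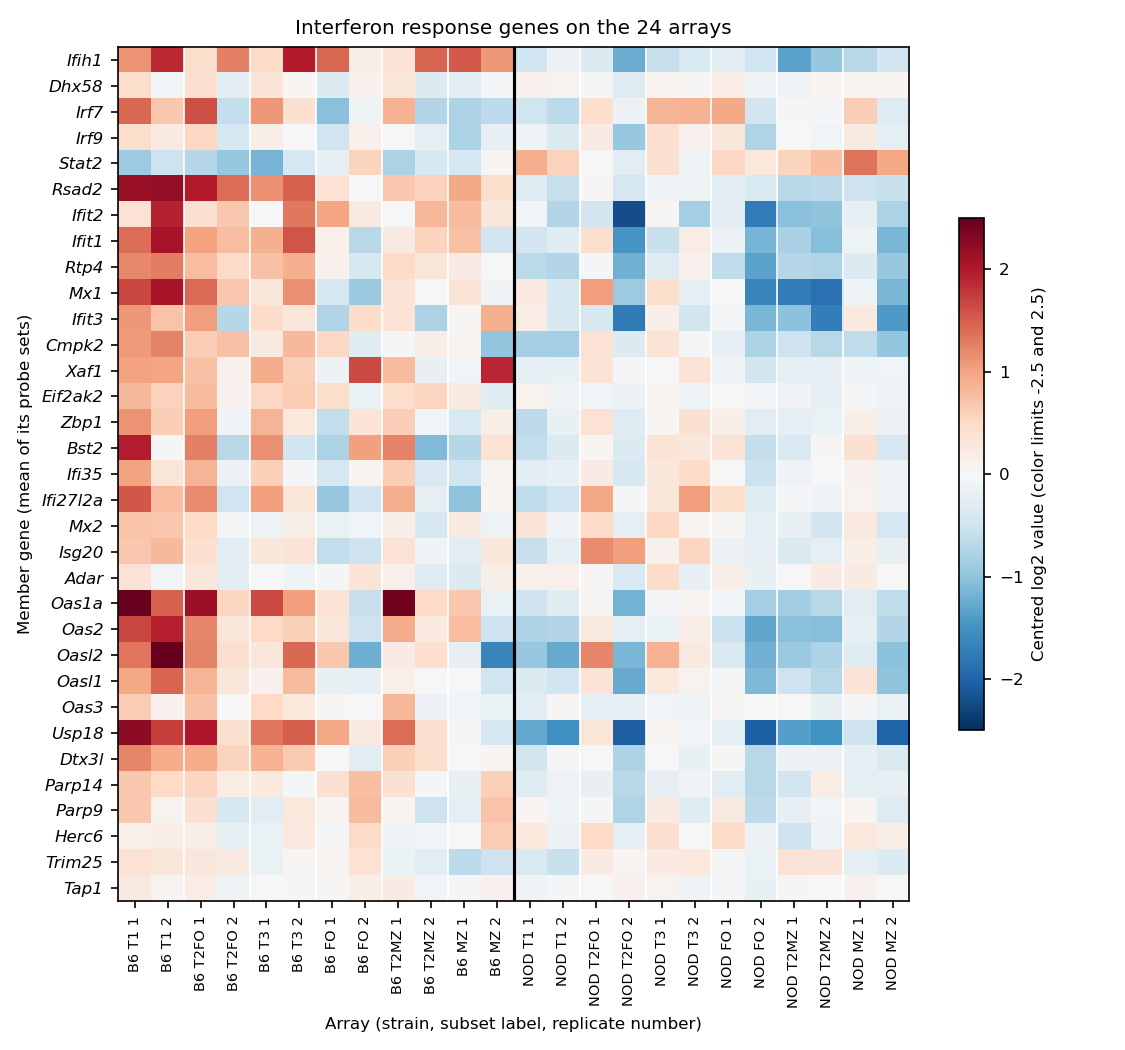
Centred log2 values (color, limits -2.5 and 2.5) of the 33 member genes (rows, mean of the probe sets of a gene, grouped by role) on the 24 arrays (columns, by strain, subset label and replicate number). Values are highest at left in B6 T1 and in replicate 1 of B6 T2FO, and low in NOD T2FO replicate 2 and NOD FO replicate 2.

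Within labels the strain difference was largest in T1, where 16 member probe sets were called lower and 1 higher in NOD (limma over the 12 groups; 6.31% of all probe sets were called in T1, 2.51% lower and 3.8% higher). By sign 86.2% of members were lower, against 57.1% of all. Rsad2 had -4.05 ± 0.46 (SE, n = 2 and 2 arrays, limma adjusted p = 5.98e-05) in 1436058_at, Cmpk2 -3.78 ± 0.62 (limma adjusted p = 0.00147), Usp18 -3.39 ± 0.74 (limma adjusted p = 0.0117), Oasl2 -3.02 ± 0.75 and Oas2 -2.57 ± 0.42 (limma adjusted p = 0.00138). The median of the 58 probe sets was -0.91, against -0.05 for all. These are the NOD arrays whose sort markers run against the label. Here and in the paragraphs below, counts with single arrays left out stand without counts over all probe sets. Such counts do not show whether members stand out. Leaving out single arrays lowered the count of 17 to 9 and 10 (B6 T1 1 and 2) and to 6 and 9 (NOD T1 1 and 2).

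In the other labels few members were called. In T2FO, 77.6% of member probe sets were lower by sign (51.8% of all), the median was -0.40 and 3 were called (2.58% of all, 1.31% lower and 1.27% higher), 2 of Rsad2 lower and Isg20 higher (1.03 ± 0.24, limma adjusted p = 0.0353); without NOD T2FO replicate 1 it was 7. In T2MZ, 72.4% were lower (53.6% of all) and 2 were called (2.73% of all, 1.02% lower and 1.71% higher), Rsad2 lower and Stat2 higher (1.48 ± 0.25). In T3, 63.8% were lower (55.9% of all) with 3 called (1.72% of all, 0.711% lower and 1.01% higher), again Rsad2 and Stat2, and no member was called there without B6 T3 replicate 2 or without NOD T3 replicate 1. In FO, 67.2% were lower (52% of all) and none was called by limma (7 at an unadjusted p under 0.05; 2.88% of all were called, 1.4% lower and 1.48% higher). Without NOD FO replicate 1, 1 was called. In MZ the share lower was 55.2%, near the 55.1% of all probe sets, and 2 were called (2.52% of all, 0.941% lower and 1.58% higher), Rsad2 (-2.63 ± 0.46) and Stat2 (1.37 ± 0.25). Without single arrays of the MZ groups the count was 1 to 2.

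**Figure D4:**
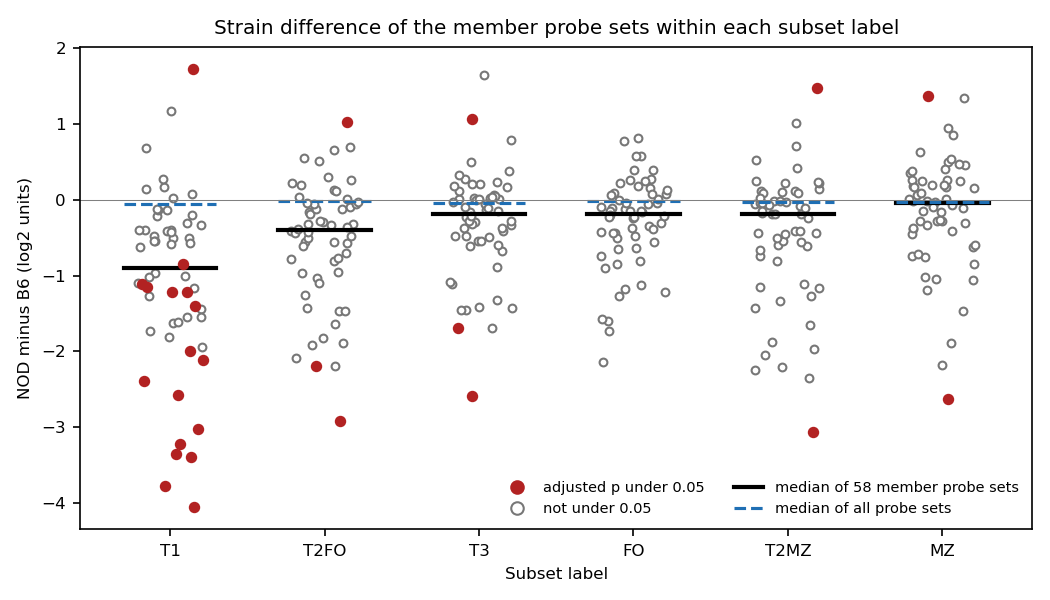
Difference of NOD minus B6 in log2 units (vertical axis) of the 58 member probe sets within each subset label (horizontal axis, points spread sideways at random); filled points have an adjusted p under 0.05. The median of the members (black) is -0.91 in T1 and -0.05 in MZ, and the median of all probe sets (dashed) lies near 0 in every label.

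In B6 the response genes were highest in T1, the most immature subset. Of the 33 genes 29 had their highest B6 group mean in T1, as did 20.9% of all genes, and none had its lowest there (14.9% of all genes). The median over member genes was 1.01 and 0.72 in the T1 arrays, 0.77 and 0.11 in T2FO, 0.45 and 0.35 in T3, 0.34 and -0.07 in T2MZ, 0.00 and 0.06 in FO and -0.06 and 0.04 in MZ. Both T1 arrays lay above all FO, MZ, T2MZ and T3 arrays, and T2FO replicate 1 lay above T1 replicate 2. Both T3 arrays lay above both T2MZ arrays, while T2FO overlapped T3 and T2MZ. T1 replicate 2 was high although its 5′ minus 3′ control difference was -3.61.

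Among the 6 subsets of B6, 2 of 58 member probe sets differed (limma F test, adjusted p under 0.05; 1.41% of all probe sets did), both of Rsad2. In 1421009_at Rsad2 was 2.61 and 2.85 in T1, 2.55 and 1.44 in T2FO, 1.36 and 1.59 in T3, 0.79 and 0.08 in T2MZ, 0.81 and 0.27 in MZ and 0.10 and -0.11 in FO (limma adjusted p = 0.00153). The values fell from T1 to FO with no overlap between those groups. Isg20 came next in the F test (limma adjusted p = 0.118), with 0.67 and 0.81 in T1 and -0.61 and -0.51 in FO. A single probe set was called without either T1 array, either T2FO array or FO replicate 2. MZ and FO of B6 differed in none of the 58 by limma (4 at an unadjusted p under 0.05; 0.564% of all were called, 0.191% lower and 0.373% higher in MZ).

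In NOD the order of the labels was another one. The highest group mean lay in the arrays labelled T3 for 19 of 33 genes (18.5% of all genes) and the lowest in those labelled T2MZ for 12 (13.9% of all genes). Among the 6 NOD labels 2 member probe sets differed by limma's F test (1.77% of all did). Isg20 was 1.19 and 1.04 in NOD T2FO and -0.57 and -0.24 in NOD T1 (limma adjusted p = 0.0163). Stat2 1421911_at was 1.27 and 0.91 in NOD MZ and -0.01 and -0.57 in NOD T2FO (limma adjusted p = 0.039). Leaving out single NOD arrays gave 0 to 2 calls, with none left without NOD T1 replicate 1 or without NOD T2FO replicate 2. The strain difference itself varied between labels in 2 member probe sets, Rsad2 1421009_at and Isg20 (limma interaction F test; 1.35% of all did). Neither was called when any 1 of the T1 or FO arrays of either strain, the NOD T2MZ arrays or NOD MZ 1 was left out.

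Replicates of 1 NOD group could differ in these genes together. In NOD FO, none of 33 member genes was higher in replicate 2 than in replicate 1, although 45.8% of all genes were. In NOD T2FO it was 1 (45.6% of all genes) and in NOD MZ it was 3 (42.2% of all genes), with median gaps of -0.63, -0.69 and -0.35 log2 units. Usp18, singled out after its values were seen, was 0.30 in NOD T2FO replicate 1 and -2.06 in replicate 2, a gap as wide as its difference between the strains. In NOD T1, T3 and T2MZ the members did not shift together, with 15, 13 and 16 of 33 higher in replicate 2. In B6 T2FO, 3 of 33 were higher in replicate 2 (37.8% of all genes), where the 5′ minus 3′ control difference also fell by 2.83. In NOD T2FO that difference rose by 0.77, in NOD FO it moved by -0.14 between the replicates and in NOD MZ by -0.07.

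**Figure D5:**
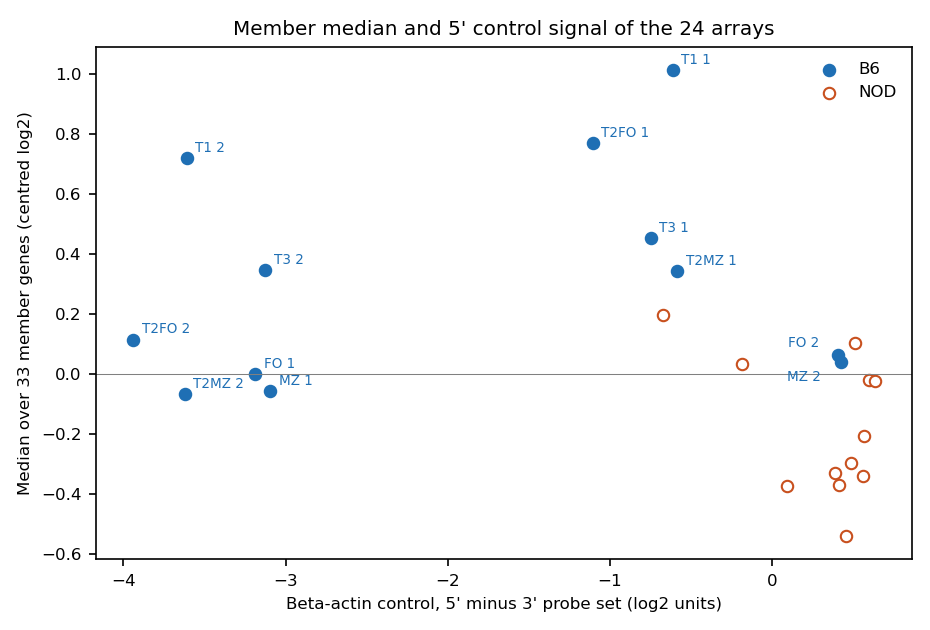
Median over the 33 member genes (vertical axis, centred log2) against the 5′ minus 3′ difference of the beta-actin control (horizontal axis, log2 units) for 12 B6 arrays (filled, named by subset and replicate) and 12 NOD arrays (open). B6 T1 is high at control differences of -0.61 and -3.61. The B6 arrays FO 2 and MZ 2, at 0.06 and 0.04, lie beside NOD arrays, which run from -0.54 to 0.20.

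The median over member genes ran from -0.07 to 1.01 in the B6 arrays and from -0.54 to 0.20 in NOD, so the strains overlapped. The 4 B6 arrays with intermediate control values were among the highest, at 0.34 to 1.01. With the beta-actin difference as a term in a model of the 24 arrays, 28 member probe sets were called, and 24 were called without that term. That model takes arrays of 1 pool as independent, and 9159 probe sets in all were called in it without the term and 10487 with it.

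Lists of receptor and signal genes and of sensors and adaptors, which do not hold Ifih1, had no probe set called lower in NOD. Of 10 receptor and signal genes 9 were measured, and Irf3 (2.00 ± 0.17 in 1438721_a_at, limma adjusted p = 0.0224) and Irf8 (1.22 ± 0.12 in 1448452_at, limma adjusted p = 0.0246), a pair of interferon regulatory factors, had 1 probe set each called higher in NOD. Their other probe sets differed by 0.34 to 0.57. The kinase gene Jak1 had the widest difference of these, 3.17 ± 0.60 in 1433804_at, which did not pass the test (limma adjusted p = 0.0783), with 0.26 and 0.45 in its other probe sets. Neither of the receptor genes Ifnar1 and Ifnar2 was called, at -0.22 to 0.13. Among sensors and adaptors 7 of 9 were measured and none was called by limma. The receptor gene Tlr7 had -0.83 (limma adjusted p = 0.0731), -0.74 and -0.10, and the RIG-I gene Ddx58 had -0.52, -0.16 and 0.49 in its probe sets. Of 11 GTPases induced mainly by interferon gamma 8 were measured, with a median of -0.17 and none called. Their list median was lowest in NOD T2FO replicate 2 (-0.77) and NOD FO replicate 2 (-0.54), the arrays in which the members were lowest too.

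Markers of other cells that make or answer interferon were read beside these values, as medians over the measured genes of a list. The plasmacytoid dendritic cell list (6 of 6 genes measured) lay between -0.08 and 0.17 in NOD and between -0.17 and 0.14 in B6. Some probe sets of Irf8 and Tcf4, which B cells also express, were called higher in NOD. For Tcf4 they were 1416724_x_at (1.15) and 1424089_a_at (1.23), while its other probe sets ran from -0.21 to 0.50. The macrophage list (6 of 7) reached 2.68 and 2.45 in NOD FO replicates 1 and 2, where the member median was -0.02 and -0.54. This list reached 1.99 in B6 MZ replicate 2, and otherwise lay between -0.47 and 0.95. The monocyte and neutrophil list (4 of 5) ran from -0.10 to 0.49, the T cell list (5 of 6) from -0.32 to 0.63 and the NK cell list (3 of 4) from -0.67 to 1.87, the last value in B6 T2FO replicate 2. None of these lists had a probe set called lower in NOD. The B cell list (4 of 5) ran from -0.86 to 0.26 in B6 and from -0.06 to 0.36 in NOD. Centring leaves no way to say whether any marker was absent, and the part of other cells in the member values was not tested.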

How the data were processed

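RNA of 24 sorted B cell samples was amplified in 2 cycles and hybridised to an Affymetrix whole-genome mouse array, per the labels. The submitters' processing notes name RMA, and the deposited values are taken as log2 values; neither the log base nor the version is given in the sources used here. Each probe set was found centred on its median over the 24 arrays (largest median 5e-07), so no filter on dim probe sets was possible. Gene symbols come from the platform annotation: 34945 probe sets had 1 gene, 932 several, 9160 none, and 64 were controls. Of those with 1 gene, 34741 matched the NCBI gene table of GRCm38.p6 and 0 symbols changed.

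All 45037 probe sets that are not controls entered the tests (R 4.3.3, limma 3.58.1). For NOD against B6 over subsets the 6 arrays of a strain and replicate number were averaged to 1 pool mean, and 4 pool means were compared. Contrasts within labels and F tests came from 1 fit of the 12 groups. The comparison at like 5′ signal was a separate fit of its own arrays, with terms for strain and label and arrays taken as independent. Benjamini-Hochberg adjustment ran over all probe sets tested, and adjusted p under 0.05 counted as called. Errors are standard errors. P-values rest on 2 pools per strain or 2 arrays per group. At like 5′ signal they rest on 2 B6 arrays with the same replicate number. Arrays of 1 pool are not independent. The labels do not say that the replicate number marks the pool. The scripts were tested on simulated data. Figures used matplotlib 3.10.9 in Python 3.11.15.

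The members, lists and tests were chosen with earlier results of these data known. All member genes were accounted for; array values are given for members with a called probe set, with all of 3 or more probe sets lower, with probe sets over 0.5 log2 units from 0 in both directions, and for the 2 that vary most among B6 subsets, plus Usp18, Xaf1, Adar, Ifit2 and Irf7, chosen after their values were seen.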

Additional observations from a re-analysis of the deposited data

Results flagged for a closer look

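The difference between the strains varied between subset labels in 2 member probe sets (limma interaction F test over 5 differences, Benjamini-Hochberg adjustment over all probe sets). For Rsad2 1421009_at the interaction had an adjusted p of 0.030, and NOD minus B6 was -3.22 in T1, -2.20 in T2FO, -1.69 in T3, -1.19 in MZ, -0.81 in T2MZ and -0.47 in FO. For Isg20 1419569_a_at the interaction had an adjusted p of 0.0347, and the difference was -1.15 ± 0.24 (SE) in T1 and 1.03 ± 0.24 in T2FO. Both rest on the NOD labels, which run against the sort markers.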

How the results depend on the processing

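The call of single members over the subsets depended on how the spread between pools was estimated, while the signs mostly held. Of 58 member probe sets 6 were called, of 1361 in all. Treating 24 arrays as independent gave 24 (9159 in all), adding the 5′ minus 3′ term gave 28 (10487), crossing the B6 FO and MZ numbers gave 0 (limma, 16 at an unadjusted p under 0.05; 59 in all) and keeping probe sets with SD above the median gave 14 (2769). Same-numbered arrays deviated together in 12 of 15 pairs of labels in NOD and 7 of 15 in B6, where FO and MZ ran against the other 4, so the numbers as given do not pair the samples throughout. With the replicate block 0 were called (limma, 23 at an unadjusted p under 0.05; 18 in all). Means per gene gave 433 genes in all. Settings added after the values were seen gave 29 without the 6 B6 arrays of lowest 5′ signal (9706 in all, arrays independent), 2492 in all without the arrays labelled T1 and 5208 at like 5′ signal. Leaving out a pool gave 0 to 12 members and 0 to 3433 in all.

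The member counts in this paragraph stand without counts over all probe sets, so they do not show whether members stand out. Within labels, the replicate block gave 6 in T2FO, 5 in T3, 7 in T2MZ, 4 in MZ and 8 among B6 subsets. The 5′ minus 3′ term gave 31 in T1, 15 in T2FO, 8 in T3, 5 in FO, 9 in T2MZ, 6 in MZ, 13 among B6 subsets, 4 among NOD labels, 3 for MZ against FO and 6 for the interaction. Gene means gave 1 in T3 and 1 for MZ against FO. A fit of only the 4 arrays compared gave 8 in T1 and 0 in T2FO, T3, T2MZ and MZ. Leaving out single arrays gave 6 to 10 in T1, 2 to 7 in T2FO, 0 to 2 in T3, 0 to 1 in FO, 1 to 2 in MZ, 1 to 3 among B6 subsets, 0 to 2 among NOD labels and 0 to 2 for the interaction.

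Among the 24 probe sets that differed by at least 0.5 log2 units, signs turned for Herc6 1438037_at (0.070 with the 5′ minus 3′ term), and for Eif2ak2 1440866_at (0.054) and Oasl2 1453196_a_at (0.72) at like 5′ signal; the cause was not tested. Over all 58, 17 turned at like 5′ signal, 13 of them to higher in NOD, and 7 with the 5′ minus 3′ term. The count of genes lower over all probe sets ran from 17 to 28 over the settings that keep probe sets apart. With 1 value a gene it was 31 of 33 for means (58.2% of all genes) and 30 for the most variable probe set. Signal over background is not known, and 2 pools per strain limit the precision.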
